A study of Mus musculus with 4 samples.

Results

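The genes described here encode nuclear subunits of the mitochondrial respiratory chain, the ATP synthase and the adenine nucleotide translocases, among them 5 isoforms made mainly in testis. They were taken from a list of 52 genes by gene symbol in the platform annotation, and 51 had at least 1 probe set naming that gene alone, out of 12241 genes measured in all. The exception was Cox7b, the somatic partner of Cox7b2, which was not analysed here. Each gene is given at its brightest probe set. RNA from whole testes of male mice was hybridised to 4 Affymetrix arrays, which report probe set signals in linear units of intensity. The wild type group held 2 arrays and the Taf7l knockout group held 2 arrays, all from C57BL/6J animals of 8 weeks, which the series design calls littermates. Taf7l is an X-linked relative of Taf7, a subunit of the general transcription factor TFIID, and is enriched in germ cells. The sources used here do not say how the knockout allele was made. The second knockout array carries the number 1 in its description and 2 in its title, and nothing settles that the arrays of a group came from separate animals, so p-values measure the spread between arrays, which may be technical.

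The respiratory chain passes electrons from NADH (complex I) and succinate (complex II) through complex III and the mobile carrier cytochrome c to oxygen (complex IV), and the proton gradient it builds drives the ATP synthase. Adenine nucleotide translocases exchange the ATP made in the matrix for ADP from the cytosol. In the mammalian testis, spermatocytes and spermatids replace or supplement several ubiquitous subunits with isoforms of their own: Cyct for the cytochrome c gene Cycs, Cox6b2 for Cox6b1, Cox7b2 for Cox7b, Cox8c for Cox8a, and Slc25a31 (also called Ant4) for Slc25a4 and the X-linked Slc25a5.

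The promoters of the measured isoforms and partners are shown because their levels are compared below and because the deleted gene belongs to a family that acts at core promoters; Cox8c is named only. All lines give the 150 bases before the annotated start of the gene, 5′ to 3′ on the strand of the gene, from RefSeq's GRCm38.p6 table, and capitals mark motif matches on either strand. The motifs searched were the CCAAT box (letters CCAAT), the TATA box (letters TATAAA), the core of the cAMP response element (letters TGACGT), the core of the site of NRF1, a regulator of respiratory genes (letters GCATGCGC), and the GC box (letters GGGCGG).
Cyct, chr2:76360454-76360603, minus strand: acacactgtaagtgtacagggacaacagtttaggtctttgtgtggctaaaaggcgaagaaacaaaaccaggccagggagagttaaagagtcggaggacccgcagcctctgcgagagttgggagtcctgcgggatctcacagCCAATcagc
Cycs, chr6:50566570-50566719, minus strand: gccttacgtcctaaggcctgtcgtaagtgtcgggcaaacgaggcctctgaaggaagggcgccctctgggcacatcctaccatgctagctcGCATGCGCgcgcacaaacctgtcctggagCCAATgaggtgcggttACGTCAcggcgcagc
Cox6b2, chr7:4753095-4753244, minus strand: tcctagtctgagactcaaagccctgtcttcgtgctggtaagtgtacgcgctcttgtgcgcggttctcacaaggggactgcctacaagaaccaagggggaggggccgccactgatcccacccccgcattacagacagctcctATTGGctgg
Cox6b1, chr7:30626115-30626264, minus strand: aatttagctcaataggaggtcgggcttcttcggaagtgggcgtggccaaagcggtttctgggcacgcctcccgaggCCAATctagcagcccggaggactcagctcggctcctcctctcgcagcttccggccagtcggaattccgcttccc
Cox7b2, chr5:71548206-71548355, minus strand: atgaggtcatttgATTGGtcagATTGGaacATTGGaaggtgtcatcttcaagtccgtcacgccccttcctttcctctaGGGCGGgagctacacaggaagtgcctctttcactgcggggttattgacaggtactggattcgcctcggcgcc
Cox8a, chr19:7217617-7217766, minus strand: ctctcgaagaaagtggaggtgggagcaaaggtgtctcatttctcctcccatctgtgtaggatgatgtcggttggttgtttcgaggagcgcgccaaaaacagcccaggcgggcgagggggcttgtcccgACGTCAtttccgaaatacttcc
Slc25a31, chr3:40708721-40708870, plus strand: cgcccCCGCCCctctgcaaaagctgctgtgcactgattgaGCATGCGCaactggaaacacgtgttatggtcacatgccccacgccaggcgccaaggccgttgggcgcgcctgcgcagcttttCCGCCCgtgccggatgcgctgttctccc
Slc25a4, chr8:46211063-46211212, minus strand: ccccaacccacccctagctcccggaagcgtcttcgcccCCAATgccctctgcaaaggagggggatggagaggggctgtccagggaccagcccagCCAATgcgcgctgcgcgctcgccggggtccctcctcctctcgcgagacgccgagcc
Slc25a5, chrX:36795447-36795596, plus strand: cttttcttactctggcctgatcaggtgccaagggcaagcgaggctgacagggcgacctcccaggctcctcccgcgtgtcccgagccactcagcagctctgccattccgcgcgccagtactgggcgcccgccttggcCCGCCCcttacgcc

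In these windows the Cycs promoter held a CCAAT box at −31 to −27, an NRF1 core at −60 to −53 and a cAMP element core at −15 to −10, counted back from the start. Among these motifs the Cyct window held a CCAAT box at −9 to −5 and no other. Cox7b2 held 3 CCAAT boxes on the opposite strand, the first at −137 to −133, and Slc25a31 held an NRF1 core at −110 to −103. Cox8a held a cAMP element core on the opposite strand at −22 to −17, and Slc25a4 held CCAAT boxes at −112 to −108 and −56 to −52. Over the 250 bases before the start, the NRF1 core was present in 5 of the 39 promoters found for these genes (12.8%) and in 2.26% of all 32851 promoters. The cAMP element core was present in 7 of the 39 (17.9%) and in 6.47% of all, the CCAAT box in 14 (35.9%) and in 33.8% of all, the GC box in 16 (41.0%) and in 32.7% of all, and the TATA box in 2 (5.13%) and in 12.4% of all. A match is a description of the letters and not a measured binding site. Over the 250 bases before the start, Cycs had a GC content of 64.0% and an observed over expected CpG ratio of 0.905, and Cyct had 45.6% and 0.471.

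Facts of the arrays frame these values. Taf7l itself gave 829 and 818 units of signal in wild type testis but 80.6 and 72.5 in knockout testis, so its level fell by 3.43 on the log2 scale (limma adjusted p = 0.0033). Markers of elongating spermatids were measured for 10 of 10 genes, so the tissue label holds by its germ cell markers. The scaling target of the deposited signals is not given, and genes of high signal were lower on the knockout arrays: among 4085 genes with a mean signal of 1000 or more the median log2 difference was −0.12, against −0.05 over all 12241 genes, and after quantile normalization these medians were −0.02 and −0.0018. Small differences below are therefore relative to a scaling that the sources used here do not settle. Wild type replicate 2 stood apart in markers of tissue next to the testis: the summed signal of 5 measured adipocyte markers was 4114 there, against 941 to 1748 on the other arrays, and that of 3 epididymis markers 699 against 233 to 306. Wild type replicate 2 and knockout replicate 2 shared the exact signal at 2385 probe sets, where any other pair of arrays shared 228 to 620, but at 0 of the brightest probe sets of the genes described here.

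Across the respiratory chain, transcript levels in knockout testis lay close to those in wild type. The differences of the 51 genes ran from −0.38 to 0.33 on the log2 scale, with a median of −0.02, and the largest was a 1.30-fold change. Each limma 95% interval, taken gene by gene, lay inside a 2-fold change in either direction, and the median SE was 0.061. In all, 22 genes were higher and 29 lower (43.1% higher, against 39.3% of all genes and 26.9% of the genes with a mean signal of 1000 or more). Under quantile normalization the median became 0.08. Groups did not overlap for 34 of the 51 genes (66.7%), 12 higher (23.5%) and 22 lower (43.1%). The shares over all genes were 58.3%, 19.6% and 38.7%. Among genes with a mean signal of 1000 or more they were 71.2%, 14.7% and 56.5%.

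By the limma test over all 22519 kept probe sets, of which 1.39% were called (0.444% higher and 0.941% lower), 1 gene of the 51 fell and 0 rose, with 10 lower and 6 higher at an unadjusted p under 0.05. Over all genes at their brightest probe sets, 1.74% were called, 0.539% higher and 1.2% lower, and at the unadjusted threshold 27.9% passed, 7.49% higher and 20.4% lower. The count of calls is thus near the background.

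**Figure D1:**
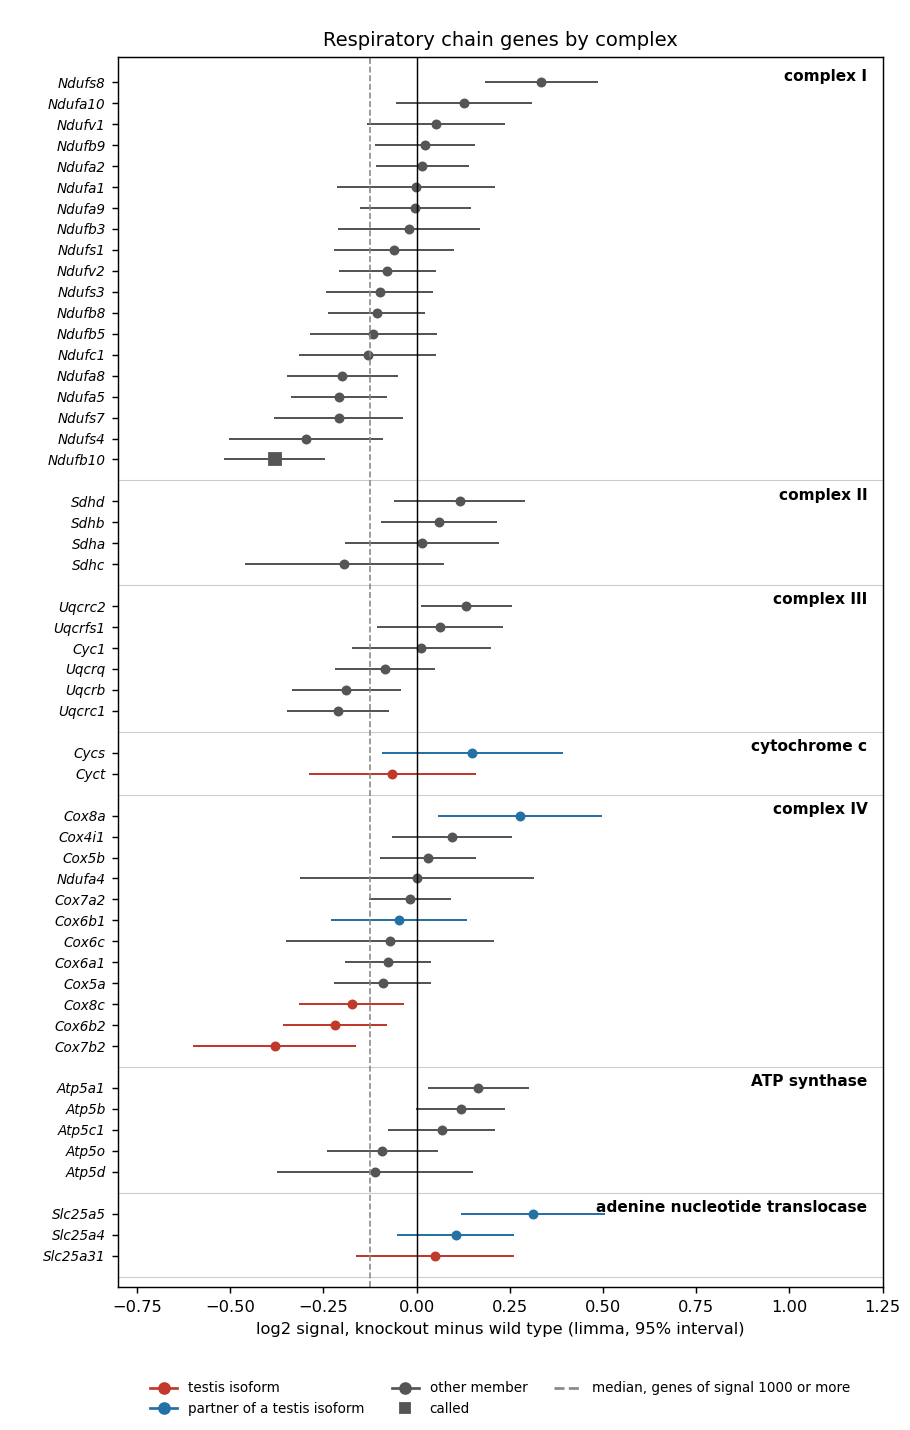
Log2 difference (knockout minus wild type, x axis) of each measured gene, grouped by complex, with limma 95% intervals as lines. Red marks testis isoforms, blue their partners, the square the only call, Ndufb10 at −0.38, and the dashed line the median of genes with a mean signal of 1000 or more (−0.12).

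Complex I, the NADH dehydrogenase, held the only call. Ndufb10, an accessory subunit of the membrane arm, had signals of 5851 and 5769 in wild type and 4450 and 4473 in the knockout. Both knockout arrays lay below both wild type arrays, and replicates were close. The group means were 5810 ± 58.3 and 4462 ± 16.3 (SD, n = 2 arrays in both groups), and the level fell, with a log2 change of −0.38 (SE 0.052, limma adjusted p = 0.0496). The call stands at the threshold: the limma adjusted p was 0.079 after quantile normalization, 0.052 with the replicate number as a block, 0.0515 with a robust prior, 0.091 without a variance trend and 0.16 with no filter, and between 0.085 and 0.35 with any 1 array left out, while the difference itself stayed between −0.39 and −0.26 under these settings.

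The opposite end of complex I was Ndufs8, which encodes a core iron-sulfur subunit of the matrix arm. Its signals were 2512 and 2545 in wild type and 3148 and 3229 in the knockout, with no overlap (log2 0.33, SE 0.058, limma adjusted p = 0.059, not called). All 6 of its kept probe sets were higher, by 0.08 to 0.35. Of the 19 genes of the complex, 5 were higher and 14 lower, and their median of −0.08 became 0.04 under quantile normalization. Lower ones, named here after their values were seen, were the accessory subunit genes Ndufs4 (−0.30), Ndufa5 (−0.21) and Ndufa8 (−0.20) and the core subunit gene Ndufs7 (−0.21), none of which passed (limma adjusted p between 0.085 and 0.143). The second Ndufa5 probe set was at −0.37, also not called. The third and dimmest kept Ndufs4 probe set was at 0.22, the other way from its brightest. Core subunit genes Ndufv1 (0.05), Ndufv2 (−0.08), Ndufs1 (−0.06) and Ndufs3 (−0.10) were close to wild type at their brightest probe sets. Another bright Ndufv2 probe set was at 0.16 with no overlap, the other way from its brightest (limma adjusted p = 0.14, not called).

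Complex II, succinate dehydrogenase, is also an enzyme of the citric acid cycle. None of its 4 genes was called, and the median was 0.04. Sdhc, a membrane anchor subunit, had signals of 2326 and 2481 in wild type and 1921 and 2296 in the knockout (log2 −0.19, SE 0.104, limma adjusted p = 0.32). The other anchor, Sdhd, had 1598 and 1704 in wild type and 1780 and 1795 in the knockout (log2 0.12, limma adjusted p = 0.36). At these probe sets the groups did not overlap for either anchor, in opposite directions. At the second kept probe sets of Sdhc (−0.04) and Sdhd (0.12) the groups overlapped. The catalytic flavoprotein gene Sdha (0.02) and the iron-sulfur subunit gene Sdhb (0.06) lay near 0 at their brightest probe sets. The second kept Sdha probe set, a dimmer one, was at −0.16 with no overlap (limma adjusted p = 0.29, not called).

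In complex III, the cytochrome bc1 complex, the paired core protein genes went opposite ways. Uqcrc1 had signals of 5745 and 5886 in wild type and 5007 and 5046 in the knockout (log2 −0.21, SE 0.053, limma adjusted p = 0.093). Uqcrc2 had 12709 and 12699 in wild type and 13747 and 14132 in the knockout (log2 0.13, SE 0.047, limma adjusted p = 0.17). Neither gene passed, although the groups did not overlap for either. Uqcrb, a small subunit, was at 19127 and 17715 in wild type and 15975 and 16339 in the knockout (log2 −0.19, limma adjusted p = 0.13). The Rieske iron-sulfur protein gene Uqcrfs1 (0.06), the cytochrome c1 gene Cyc1 (0.01) and Uqcrq (−0.08) completed the complex, whose median was −0.04.

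Cytochrome c was measured for both genes. Cyct had signals of 7821 and 7576 in wild type and 6806 and 7957 in the knockout, with the second knockout array above both wild type arrays (log2 −0.06, 95% interval −0.29 to 0.16, limma adjusted p = 0.70). Cycs had 6670 and 7341 in wild type and 7195 and 8370 in the knockout (log2 0.15, 95% interval −0.09 to 0.39, limma adjusted p = 0.39). The groups overlapped for both. Cyct became 0.03 after quantile normalization.

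Complex IV, cytochrome c oxidase, carried 3 of the testis isoforms, and these were its 3 lowest genes. Cox7b2 had signals of 9106 and 8294 in wild type and 6282 and 7095 in the knockout (log2 −0.38, SE 0.085, 95% interval −0.60 to −0.17, limma adjusted p = 0.077). Cox6b2 had 14654 and 13808 in wild type and 12367 and 12090 in the knockout (log2 −0.22, SE 0.054, limma adjusted p = 0.090). Cox8c had 6864 and 6912 in wild type and 6250 and 5959 in the knockout (log2 −0.17, SE 0.055, limma adjusted p = 0.14), and −0.22 at its second, dim probe set. All 3 lay below wild type on both knockout arrays, and none was called. The same held for 38.7% of all genes and for 56.5% of genes with a mean signal of 1000 or more.

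Their measured partners did not share that direction uniformly. Cox8a had signals of 298 and 284 in wild type and 346 and 359 in the knockout (log2 0.28, SE 0.086, limma adjusted p = 0.13), with no overlap and with 0.16 at its second kept probe set; its brightest carries the platform suffix for possible cross-hybridisation, as do those of Cox5b and Ndufv1. Cox6b1 had 2917 and 2785 in wild type and 2647 and 2870 in the knockout, which overlapped (log2 −0.05, limma adjusted p = 0.73, and 0.09 after quantile normalization). The 7 other genes of the complex, including Ndufa4, once counted in complex I, lay between −0.09 and 0.09, among them the nuclear subunit genes Cox4i1 (0.09) and Cox5a (−0.09). The median of the 12 measured genes was −0.06 (0.03 after quantile normalization).

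At their brightest probe sets the alpha and beta subunit genes of the ATP synthase were higher without passing. Atp5a1, the alpha subunit, had signals of 5659 and 5794 in wild type and 6378 and 6468 in the knockout (log2 0.17, SE 0.052, limma adjusted p = 0.14), while its second kept probe set was at 0.03 with overlapping groups (limma adjusted p = 0.78). Atp5b, the beta subunit, had 14424 and 14449 in wild type and 15530 and 15799 in the knockout (log2 0.12, SE 0.045, limma adjusted p = 0.20). At those probe sets both were above wild type on both knockout arrays. The lowest was Atp5d, a subunit of the central stalk, with 2649 and 2528 in wild type and 2621 and 2187 in the knockout (log2 −0.11, limma adjusted p = 0.56), while its second probe set, of similar brightness, was at −0.46 (limma adjusted p = 0.058). The gamma subunit gene Atp5c1 (0.07, and −0.07 at a dim probe set) and the peripheral stalk gene Atp5o (−0.09) lay between.

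Of the adenine nucleotide translocases, the X-linked Slc25a5, the form of dividing cells, was highest. Its signals were 1898 and 2105 in wild type and 2469 and 2491 in the knockout, with no overlap (log2 0.31, SE 0.075, 95% interval 0.12 to 0.50, limma adjusted p = 0.087). All 8 of its kept probe sets were higher, by 0.10 to 0.36, although most carry the platform's suffix for possible cross-hybridisation. Slc25a4, the form of heart and muscle, had 2484 and 2416 in wild type and 2676 and 2596 in the knockout (log2 0.11, limma adjusted p = 0.35). The germ cell form Slc25a31 had 7454 and 7776 in wild type and 7339 and 8450 in the knockout, so that the knockout arrays lay on either side of wild type (log2 0.05, 95% interval −0.16 to 0.26, limma adjusted p = 0.77).

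**Figure D2:**
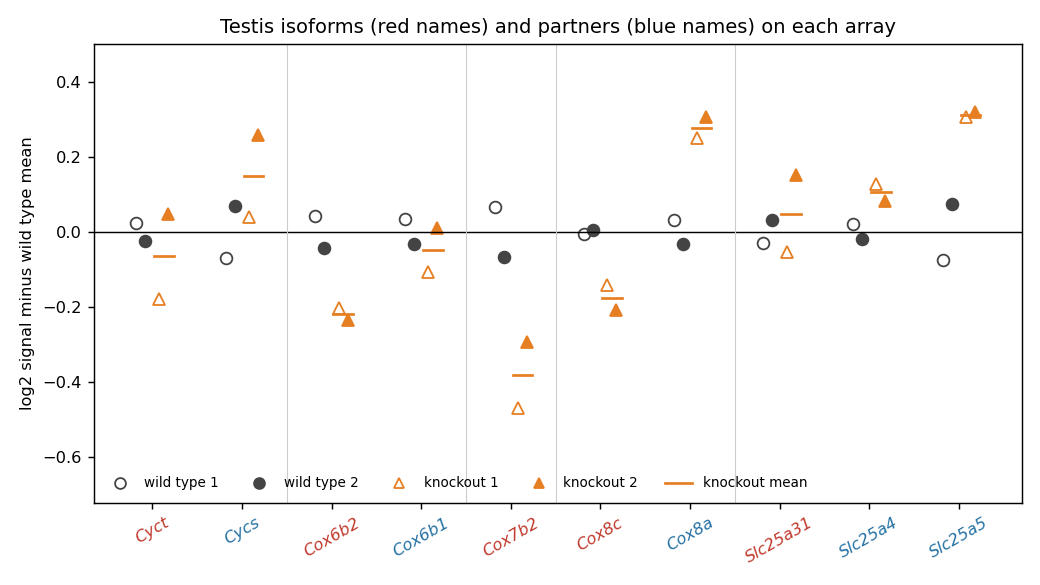
Log2 signal of each testis isoform (red names) and partner (blue names) on the 4 arrays, each minus the wild type mean of that gene (y axis). Circles are wild type arrays, triangles knockout arrays, and short lines knockout means; Cox7b2 is lowest (−0.38) and Slc25a5 highest (0.31).

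Set against each other, 4 of the 5 testis isoforms were lower in the knockout (median −0.17) and 4 of the 5 measured partners higher (median 0.15), and the 41 measured genes in no pair had a median of −0.02. Of all genes, 39.3% were higher. All 5 isoforms, and the partners other than Cox8a, had a mean signal of 1000 or more. Among genes of that signal 26.9% were higher, with a median of −0.12, so lower was the common direction there. After quantile normalization the isoform median was −0.06, with Cyct at 0.03 and Slc25a31 at 0.16 and the other 3 below 0, and the partner median was 0.26, with 5 of 5 above 0. With 1 array omitted the isoform median lay between −0.21 and −0.17 and the partner median between 0.13 and 0.26, the highest without knockout replicate 1. The log2 ratio of isoform to partner was taken within each array, so that a scaling factor of the array cancels. A shift that depends on signal does not cancel. Cox6b2, Cox8c and Slc25a31 were brighter than their partners, and genes of high signal were lower on the knockout arrays. Only the change of a ratio between groups can be read, since 2 probe sets do not share a scale. For Cyct over Cycs the ratio was 0.23 and 0.05 in wild type and −0.08 and −0.07 in the knockout, a difference of −0.21. For Cox6b2 over Cox6b1 it was 2.33 and 2.31 against 2.22 and 2.07, a difference of −0.17. These knockout arrays were below both wild type arrays in each case.

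The largest change was that of Cox8c over Cox8a, at 4.53 and 4.603 in wild type and 4.18 and 4.05 in the knockout, a difference of −0.45 or a 1.37-fold lower ratio. Slc25a31 over Slc25a5 stood at 1.97 and 1.89 against 1.57 and 1.76, a difference of −0.26. Slc25a31 over Slc25a4, at 1.59 and 1.69 against 1.46 and 1.703, overlapped (−0.06, and 0.07 without knockout replicate 1). With 2 arrays against 2, the exact permutation test (two-sided) cannot go below p = 0.333, which 4 of the 5 pairs reached (adjusted p = 0.417 over the 5), and the pair with Slc25a4 had exact p = 1. The 2 pairs with Slc25a31 share that gene.

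Over the kept probe sets of each pair, taken in every combination, the ratio was lower in the knockout for all 3 combinations of Cyct with Cycs (−0.21 to −0.14), both of Cox6b2 with Cox6b1 (−0.18 to −0.17), all 4 of Cox8c with Cox8a (−0.50 to −0.33) and all 8 of Slc25a31 with Slc25a5 (−0.31 to −0.05). For Slc25a31 with Slc25a4 it was lower in 2 of 3. These combinations share their arrays and are no replicates.

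**Figure D3:**
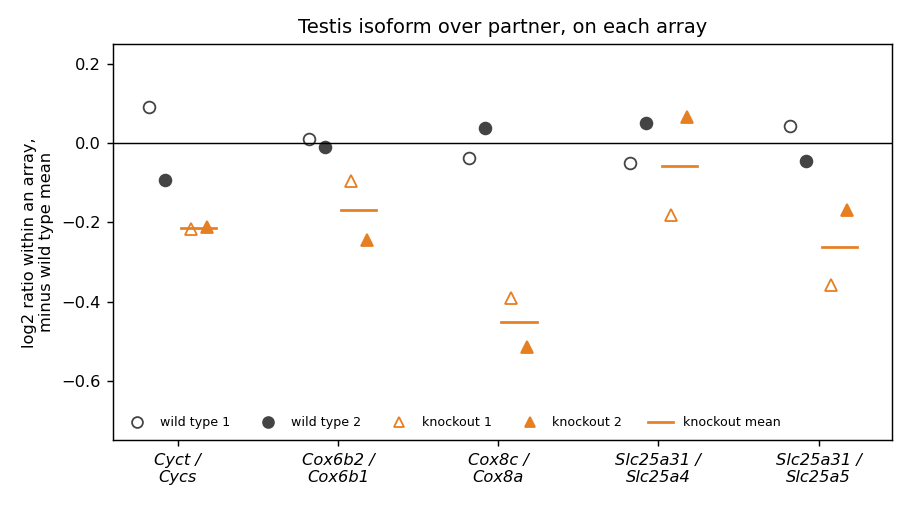
Log2 ratio of testis isoform to partner within each array, minus the wild type mean of that ratio (y axis), for the 5 measured pairs. Circles are wild type arrays, triangles knockout arrays, and short lines knockout means, which lie between −0.45 for Cox8c over Cox8a and −0.06 for Slc25a31 over Slc25a4.

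Markers of spermatocytes and spermatids were mostly lower. So were genes of high signal in general, of which 26.9% were higher with a median of −0.12. Of 10 round spermatid markers 10 were lower (median −0.26, summed signal 108113 to 112297 in wild type and 93522 to 101330 in the knockout), the kinase gene Tssk6 having the smallest p (−0.33, limma adjusted p = 0.055). Of 10 pachytene spermatocyte markers 8 were lower (median −0.23, summed signal 159302 to 162680 and 148834 to 150666), and the chaperone gene Calr3 fell (−0.59, limma adjusted p = 0.048). Of 10 elongating spermatid markers 8 were lower (median −0.13, summed signal 505981 to 522061 and 472357 to 491022), with the sperm glycolytic gene Gapdhs at −0.24. All members of these 3 lists were measured. After quantile normalization the medians were −0.13 for round spermatid, −0.17 for pachytene and −0.09 for elongating spermatid markers, against −0.02 for the genes of high signal.

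Most somatic markers lay the other way. Of 9 measured Sertoli markers 8 were higher (median 0.25, summed signal 67403 to 68524 in wild type and 84729 to 86485 in the knockout), and Ptgds rose (0.52, limma adjusted p = 0.049). The groups overlapped for Sox9 (0.04), Wt1 (0.07), Inha (0.01) and Gata4 (−0.20), and for the other 5 they did not. Of 5 measured Leydig markers 4 were higher (median 0.34, summed signal 15912 to 16180 and 19975 to 20338), and the steroidogenic gene Cyp17a1 rose (0.34, limma adjusted p = 0.0496). The exception was Nr5a1, at −0.18 with overlapping groups. Of 8 measured macrophage and leukocyte markers 8 were higher (median 0.17, summed signal 2889 to 2909 and 3331 to 3443), with H2-Aa at 0.70. Among them Csf1r (0.02), C1qc (0.12) and Cd74 (0.11) had overlapping groups, and the other 5 did not. Myoid markers had a median of 0.04, the lowest p at Tagln (−0.09). Spermatogonial markers, which mark germ cells, did not go down as a list. Of 7 measured 4 were higher and 3 lower (median 0.07), with the smallest p at Id4 (−0.41). Actin control probe sets, which report on RNA integrity, had 3′ over 5′ ratios of 2.09 and 1.999 in wild type and 2.42 and 2.18 in the knockout, while those of Gapdh were 1.04 and 0.990 in wild type and 0.927 and 0.938 in the knockout, the opposite direction. The part of these markers and of RNA integrity in the isoform ratios was not tested, and in whole testis fewer cells of a type and less RNA per cell cannot be told apart.

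Among adipocyte and epididymis markers, Adipoq, at −0.61, and Cuzd1, at −1.24, had the smallest p, and the single red blood cell marker measured, Alas2, was at −0.29; none was called. Without wild type replicate 2, which was high in both lists, the ratio differences were −0.31 for Cyct over Cycs, −0.18 for Cox6b2 over Cox6b1, −0.41 for Cox8c over Cox8a and −0.31 for Slc25a31 over Slc25a5. Cyct over Cycs was −0.12 without wild type replicate 1, Cox6b2 over Cox6b1 was −0.095 without knockout replicate 2, and Slc25a31 over Slc25a5 was −0.17 without knockout replicate 1.

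Other genes of the same machinery gave 0 calls by limma. Among 33 measured subunit and associated genes outside the list, 14 were higher and 19 lower (median −0.05, and 0.06 after quantile normalization), with 1 higher and 7 lower at an unadjusted p under 0.05. The 14 of complex I had a median of −0.11, and Ndufa6, an accessory subunit, was at 3874 and 3967 in wild type and 2659 and 3326 in the knockout (log2 −0.40, limma adjusted p = 0.12). All 3 of complex III were lower (median −0.24), among them the hinge protein gene Uqcrh (−0.28). The 12 listed with the ATP synthase, not all of them subunits, had a median of 0.02, with Atp5s (now Dmac2l) at −0.34. The 4 of complex IV, some of them muscle forms, had a median of 0.06, with Cox6a2 at 0.27.

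Assembly factors, which build the complexes without staying in them, were measured for 37 genes, of which 11 were higher and 26 lower (median −0.09, and −0.04 after quantile normalization). None was called, 13 lower and 2 higher had an unadjusted p under 0.05, and the complex II factor gene Sdhaf4 had the smallest p (−0.36, limma adjusted p = 0.061). For 12 citric acid cycle genes the median was −0.02, with the succinate-CoA ligase gene Suclg2 at 0.35, and for 16 genes of carriers, porins and protein import −0.02, with the import gene Timm50 at 0.47. None of either list was called.

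Among 11 regulators of mitochondrial genes 1 fell, the coactivator gene Ppargc1a. Its signals were 164 and 143 in wild type and 54.4 and 52.1 in the knockout (log2 −1.52, limma adjusted p = 0.024). The list's median was −0.13, with 8 of 11 lower, and the respiratory chain genes beside it had a median of −0.02.

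**Figure D4:**
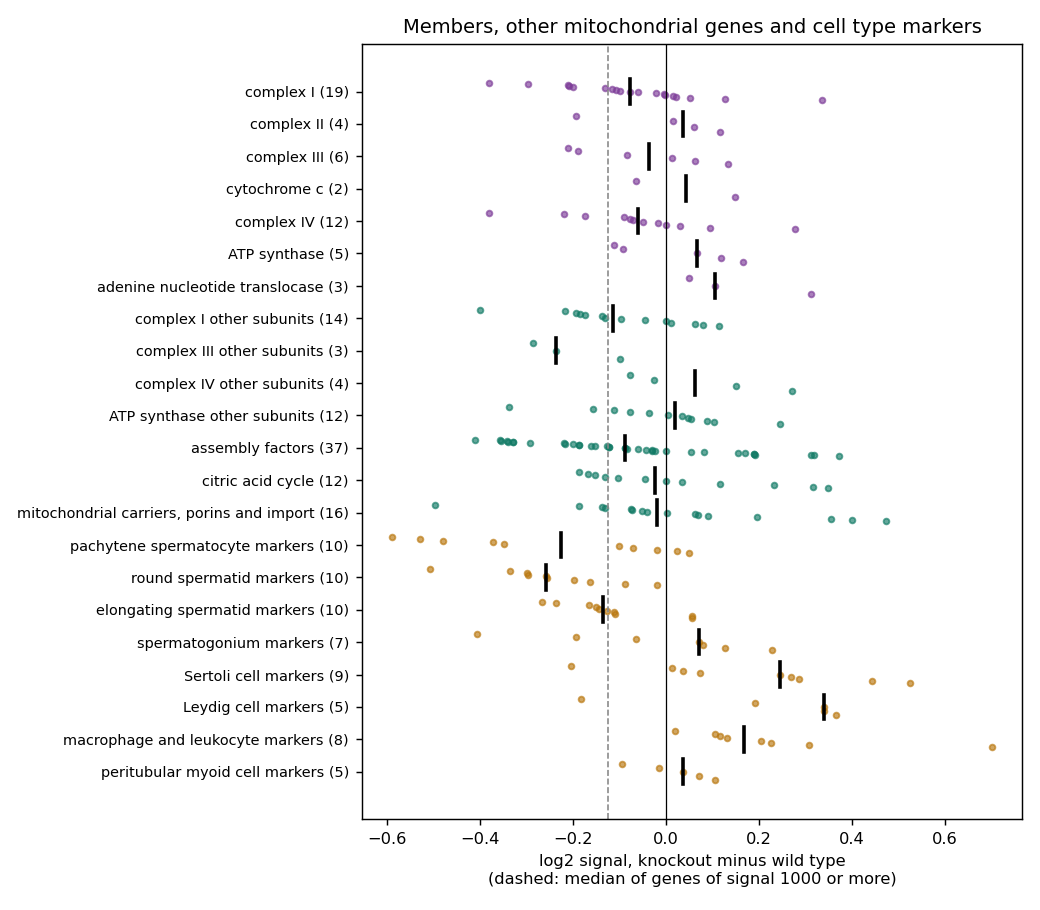
Log2 difference (knockout minus wild type, x axis) of the measured genes of the lists shown, with the number measured in brackets and a black bar at each median; regulators and adipocyte, epididymis and red blood cell markers are not drawn. Purple lists are the genes described here, green other mitochondrial genes and brown cell type markers; medians run from −0.26 for round spermatid markers to 0.34 for Leydig markers.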

How the data were processed

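Whole testis RNA of 4 mouse samples was measured on Affymetrix arrays. The values deposited by the authors are intensity on a linear scale for 45101 probe sets (64 are controls); per the submitters' processing notes MAS5 made it, with no version or scaling target given. The number of arrays limits the precision.

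Log2 of the signal was used without offset or renormalization. Mouse probe sets with a mean signal at or above the median of 45.8 were kept (22519). Genes were named from the platform annotation with symbols updated through RefSeq (GRCm38.p6): 34945 mouse probe sets had 1 symbol, 932 several and 9160 none. Genotypes were tested in limma 3.58.1 under R 4.3.3 (a linear model and eBayes with a variance trend, genotype as the only term, two-sided, Benjamini-Hochberg over all kept probe sets, called at an adjusted p under 0.05). Isoform and partner were compared by exact permutation over arrays. The same steps were tested on simulated data of this comparison (10 runs of 22519 probe sets, 200 of them changed in each run). They called 0.198% of log2 changes of size 0.25, then 3.23% at 0.5, 61.8% at 1 and 96.1% at 2. The changed probe sets were drawn from all kept ones, and the rates depend on how many change. They are not rates for the genes described here, whose median SE was 0.061 against 0.095 over all genes.

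Genes given with per-array signals were chosen by a rule: the isoforms and partners, every call, and in each complex the 2 with the smallest p and the highest and lowest difference; on other lists every call or the smallest p. Other genes of the complexes that are named with a log2 difference alone were chosen after their values were seen. Members and lists were chosen with earlier results of these data known. Whether replicate numbers pair the arrays is not settled. Deviations of same-numbered arrays from their group means correlated at 0.032. Wild type replicate 2 and knockout replicate 2 shared the exact signal at 2385 probe sets, more than any other pair of arrays. The alternatives tried changed the scaling (quantile, median), the offset (5.52), the filter (none, or 75th percentile) and the eBayes prior (no trend, robust), and added the replicate block, an adjusted p under 0.10, single-transcript probe sets, the mean of the probe sets of a gene, and each array left out.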

Additional observations from a re-analysis of the deposited data

How the results depend on the processing

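The count of called genes among the 51 depended on the threshold. The counts of 1 lower and 0 higher became 0 lower under quantile normalization, no filter, eBayes without a trend, a robust prior, the replicate block, single-transcript probe sets and each omission of 1 array (0 to 0). They became 3 lower with the mean of the probe sets of a gene, and 5 lower and 2 higher both with the 75th percentile filter and at an adjusted p under 0.10. Over all probe sets, limma's count of 312 became 148 under quantile normalization, 646 with median centring, 2375 with the 75th percentile filter, 36 without a trend, 541 with the replicate block, 2628 at an adjusted p under 0.10, 179 with single-transcript probe sets and 965 with gene means. It was 0 with no filter, where 6192 had an unadjusted p under 0.05, and 0 to 0 with 1 array omitted, where 3084 to 5500 did. Single-transcript probe sets measured 37 of the 51 genes, and Ndufb10 was not among them. The median over the 51 genes moved from −0.02 to 0.082 under quantile normalization and lay between −0.068 and 0.00076 with 1 array omitted. Whether arrays that share a replicate number belong together is not settled, so the block is not read as a paired test. The ratios of Cyct to Cycs, Cox6b2 to Cox6b1, Cox8c to Cox8a and Slc25a31 to Slc25a5 kept their direction in the alternatives run, the last at −0.054 with single-transcript probe sets, where Slc25a31 to Slc25a4 has no value; that ratio lay between −0.18 and 0.067 with 1 array omitted. Of the 51 genes, 30 kept their sign throughout. Signs changed under quantile normalization for Ndufa1 (0.11), Ndufa9 (0.11), Ndufb3 (0.094), Ndufb8 (0.010), Ndufs1 (0.082), Ndufs3 (0.040), Uqcrq (0.028), Cyct (0.034), Cox6b1 (0.087), Cox6c (0.018), Cox7a2 (0.042), Atp5d (0.023) and Atp5o (0.024). They changed with median centring for Ndufa4 (−0.0093), with single-transcript probe sets for Ndufv1 (−0.031), Cox6c (0.035), Cox7a2 (0.086) and Atp5c1 (−0.069), and with gene means for Ndufv2 (0.0088), Sdha (−0.074), Cox7a2 (0.034) and Atp5c1 (−0.00061). Ranges over the omissions of 1 array spanned 0 for Atp5d (−0.24 to 0.018), Cox6b1 (−0.11 to 0.0099), Cox6c (−0.22 to 0.082), Cyc1 (−0.046 to 0.071), Cyct (−0.18 to 0.048), Ndufa1 (−0.11 to 0.10), Ndufa2 (−0.0060 to 0.036), Ndufa4 (−0.15 to 0.15), Ndufa9 (−0.040 to 0.032), Ndufb3 (−0.086 to 0.044), Ndufv1 (−0.016 to 0.12), Sdha (−0.074 to 0.10) and Slc25a31 (−0.053 to 0.15). Such fits take the spread of a lone array from the opposite group. The cause was not tested.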
